A study of Homo sapiens with 11 samples.

Results

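Transcripts of 8 MAP kinase pathway genes were followed across the study: HRAS, MAP4K1, MAP4K2, MAP4K4, MAPK11, MAPK14, MAPKAPK2 and DUSP4. They were taken by name and make up 8 of the 594 endogenous probes in the table. MAPK11 stayed below the level needed for a test, which left 7 of the 379 tested genes. The cells were THP-1, an established leukaemic cell line of monocyte type, either left as monocytes or differentiated to macrophages by 3 h of the phorbol ester PMA and 24 h of recovery. Both states were then held for 24 h in charcoal-stripped medium, and the glucocorticoid drug dexamethasone (Dex, 100 nM) or its vehicle was added for 6 h. The groups were vehicle-treated monocytes, Dex-treated monocytes and vehicle-treated macrophages with 3 samples each, and Dex-treated macrophages with 2. The authors' design text names 12 samples; 1 Dex-treated macrophage sample was set aside by them because it grouped with vehicle samples and its FKBP5 did not rise. All groups come from 1 cell line. No label says that replicates were separate cultures, so the p-values rest on variation among these samples, some of which may be technical. Macrophages differ from monocytes here by PMA and by the recovery period together, and these cannot be told apart.

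MAP kinase cascades carry signals from receptors to the nucleus and to the translation machinery by kinases that phosphorylate one another in tiers. RAS GTPases feed the ERK branch, MAP4 kinases lie upstream of the stress-activated JNK and p38 branches, p38 acts partly through MAPKAPK2, and dual-specificity phosphatases (DUSPs) switch the last kinases off. In monocytes and macrophages these cascades drive production of inflammatory cytokines, phorbol esters feed into them through protein kinase C, and glucocorticoids are known to restrain them. What was measured here is RNA, on the NanoString nCounter, which counts a barcoded probe for each transcript; kinase activity was not measured.

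The genes lie apart in the genome (RefSeq, GRCh38.p14): HRAS at chr11:532242-535576, MAP4K2 at chr11:64784918-64803214, MAP4K1 at chr19:38587641-38617953, MAP4K4 at chr2:101697707-101894690, MAPK14 at chr6:36027808-36124214, MAPK11 at chr22:50263713-50270380 and MAPKAPK2 at chr1:206684905-206734281. Which stretch of its transcript a probe covers is not known here.

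The RefSeq promoter table held an upstream window for 6 of the 8 genes. The 250 bases upstream of the annotated start are printed 5′ to 3′ for MAPK14 and HRAS, which were both higher with Dex in macrophages, and for MAP4K4 and MAP4K1, which went opposite ways between the cell states. Capitals mark the glucocorticoid receptor half-site AGAACA on either strand and the AP-1 motif TGANTCA on either strand.
MAPK14 (chr6:36027558-36027807, plus strand): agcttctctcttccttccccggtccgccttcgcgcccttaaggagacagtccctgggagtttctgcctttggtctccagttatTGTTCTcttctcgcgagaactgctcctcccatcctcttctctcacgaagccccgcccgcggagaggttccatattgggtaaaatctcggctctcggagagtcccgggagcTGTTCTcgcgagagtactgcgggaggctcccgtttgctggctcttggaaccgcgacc
HRAS (chr11:535577-535826, minus strand): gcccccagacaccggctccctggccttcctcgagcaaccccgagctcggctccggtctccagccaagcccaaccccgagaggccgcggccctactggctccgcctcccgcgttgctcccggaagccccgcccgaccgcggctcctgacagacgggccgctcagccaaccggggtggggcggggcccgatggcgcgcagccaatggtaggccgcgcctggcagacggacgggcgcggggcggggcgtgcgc
MAP4K4 (chr2:101697457-101697706, plus strand): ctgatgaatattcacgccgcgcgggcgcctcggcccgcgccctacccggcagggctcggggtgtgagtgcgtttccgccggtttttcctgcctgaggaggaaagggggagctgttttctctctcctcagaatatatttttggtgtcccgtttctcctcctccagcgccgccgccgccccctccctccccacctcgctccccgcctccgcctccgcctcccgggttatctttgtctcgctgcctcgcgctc
MAP4K1 (chr19:38617954-38618203, minus strand): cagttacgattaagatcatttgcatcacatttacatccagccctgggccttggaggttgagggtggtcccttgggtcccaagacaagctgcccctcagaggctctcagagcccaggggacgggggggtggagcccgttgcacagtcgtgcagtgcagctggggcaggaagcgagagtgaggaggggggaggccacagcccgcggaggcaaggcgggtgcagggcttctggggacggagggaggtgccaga
The MAPK14 window held 2 matches to the half-site, beginning at positions -167 and -57 relative to the start, and the other windows held 0. Over all 35116 RefSeq windows of this length, 12.4% held the half-site and 6.57% the AP-1 motif, which matched none of the members' windows. The GC box GGGCGG, found in 42.6% of all windows, matched 3 times in HRAS, once each in MAPK14 and this MAP4K4 window, and not in MAP4K1. A match in these letters is a description of the sequence, not of a bound site.

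The deposited values are a normalized linear signal in arbitrary units. The monocyte samples summed to 372345 to 420466 units and the macrophage samples to 742895 to 889658. The geometric mean of 15 housekeeping genes was 1855 to 1924 in the monocyte samples and 2093 to 2380 in the macrophage samples. Levels between the states therefore depend on how samples are scaled, and the state differences that moved are given under other scalings too. Negative control probes reached at most 15.6 units, and a group mean of at least 20 units was asked of a tested gene. Replicates of a group correlated across genes with r from 0.984 to 0.992 on the log2 scale. FKBP5, a glucocorticoid target, was at 407 to 1259 units in the vehicle samples and at 24832 to 38036 in the Dex samples. Of 12 monocyte and macrophage markers, 8 reached 20 units in the monocyte groups and 11 in the macrophage groups. Of 12 T-cell and 6 B-cell markers, at most 2 of each list did in any group, with CD3D, CD3E, CD79A and MS4A1 below 20 units throughout. Of 8 NK-cell markers, NCAM1, GNLY and GZMA reached it in at least 1 group.

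**Figure D1:**
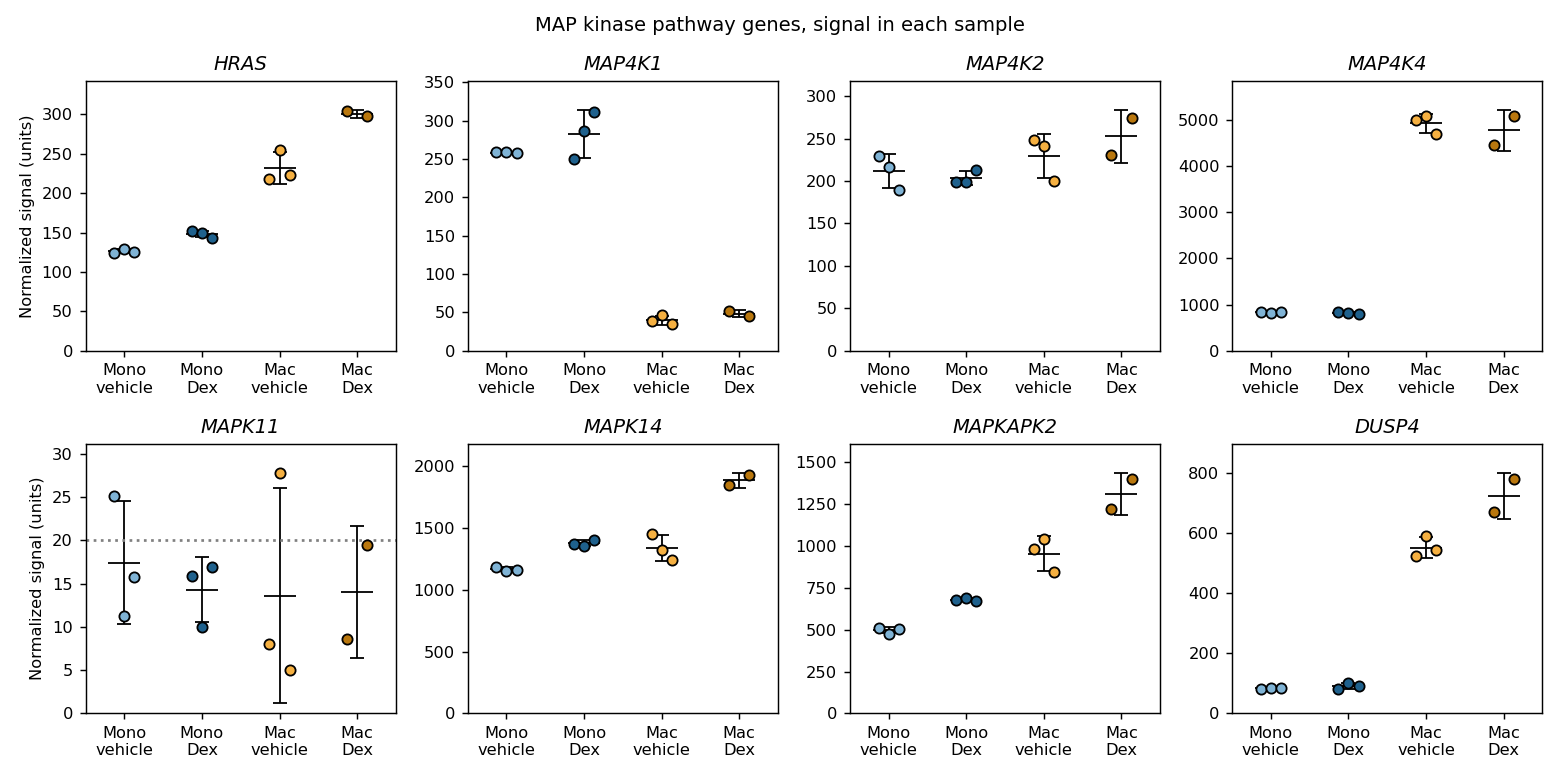
Normalized nCounter signal (units, linear axis from 0) of the 8 genes in each sample; points are samples, horizontal bars the group means and whiskers the SD (n = 3, and n = 2 for Dex-treated macrophages), and the dotted line for MAPK11 is the level of 20 units. MAP4K4 and DUSP4 are high in every macrophage sample, MAP4K1 is low in every macrophage sample, and the Dex points of MAPK14, MAPKAPK2 and HRAS lie above the vehicle points in both states, a difference that did not pass the test for HRAS in monocytes.

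At the top of the pathway, HRAS, a RAS-family GTPase that relays growth factor signals, rose with Dex in macrophages, while its difference between the states depended on the scaling. It read 124, 129 and 126 units in the vehicle-treated monocytes and 152, 149 and 143 in the Dex-treated ones. In macrophages it read 218, 255 and 223 units with vehicle and 304 and 297 with Dex. No group overlapped another, and the means stepped from 126 ± 2.44 (SD, n = 3) to 148 ± 4.17 (SD, n = 3), 232 ± 20.1 (SD, n = 3) and 301 ± 4.84 (SD, n = 2). The Dex change was 1.17-fold in monocytes (log2 change 0.23, SE 0.10), which did not pass in limma (adjusted p = 0.0916), and 1.30-fold in macrophages (0.38, SE 0.11, limma adjusted p = 0.0123). The macrophage call ended without Dex-treated macrophage replicate 1 (0.36, limma adjusted p = 0.0636). In monocytes the change passed after median-centring of samples (0.37, limma adjusted p = 0.0191) and without the mean-variance trend (limma adjusted p = 0.0237). Between the states, macrophages were 1.84-fold higher with vehicle as deposited (0.87, SE 0.10, limma adjusted p = 1.52e-06) and 2.03-fold higher with Dex (1.02, limma adjusted p = 1.02e-06). With vehicle this turned to -0.047 after median-centring and -0.12 after quantile normalization (limma adjusted p = 0.72 and 0.356), and with Dex it came to 0.18 and 0.09 (limma adjusted p = 0.212 and 0.521). The difference between the responses was 0.15 in log2 (95% interval -0.17 to 0.47, limma adjusted p = 0.52).

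The 3 MAP4 kinases differed from one another between the cell states, and their Dex changes did not pass the test as deposited. MAP4K1, or HPK1, a kinase of haematopoietic cells that dampens antigen receptor signalling in lymphocytes, was low in macrophages. Its signal was 259, 259 and 257 units in vehicle-treated and 250, 287 and 312 in Dex-treated monocytes, against 38.4, 46.3 and 34.3 in vehicle-treated and 51.3 and 45.2 in Dex-treated macrophages. Every macrophage sample lay below every monocyte sample, while vehicle and Dex overlapped in each state. With vehicle the mean was 6.52-fold lower in macrophages (log2 change -2.68, SE 0.14, limma adjusted p = 3.13e-10), and with Dex 5.86-fold lower (-2.52, SE 0.16, limma adjusted p = 2.4e-09). Other scalings made the difference larger, up to -3.60 with vehicle (12.1-fold, median-centring) and -3.42 with Dex (10.7-fold, quantile normalization). As deposited, among the 379 tested genes these were the 8th and 6th lowest log2 changes of those comparisons. Dex changed it by 0.12 in monocytes (95% interval -0.19 to 0.44) and by 0.29 in macrophages (-0.06 to 0.63). After median-centring the macrophage change was 0.51 (limma adjusted p = 0.0142).

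MAP4K4, or HGK, a kinase that activates JNK and takes part in cell migration, went the other way. It measured 847, 818 and 838 units in vehicle-treated and 832, 826 and 786 in Dex-treated monocytes. Macrophages held 4985, 5084 and 4683 units with vehicle and 4459 and 5082 with Dex. All 5 macrophage samples lay far above all 6 monocyte samples, and Dex and vehicle overlapped in both states. The macrophage mean was 5.89-fold higher with vehicle (log2 change 2.56, SE 0.05, limma adjusted p = 8.06e-15) and 5.86-fold higher with Dex (2.55, SE 0.06, limma adjusted p = 3.34e-14). Other scalings made it smaller, down to 1.64 with vehicle (3.12-fold, median-centring) and 1.48 with Dex (2.79-fold, quantile normalization). The Dex changes were -0.03 (95% interval -0.15 to 0.08) in monocytes and -0.05 (-0.18 to 0.08) in macrophages, so that changes beyond 0.18 in log2 lie outside both intervals as deposited. Median-centring turned the macrophage value to 0.18 (limma adjusted p = 0.048) and the monocyte value to 0.11 (limma adjusted p = 0.188).

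MAP4K2, which acts upstream of JNK and p38 after TNF receptor engagement, differed least. It lay at 229, 216 and 190 units and at 199, 199 and 213 in monocytes with vehicle and Dex, and at 248, 241 and 200 and at 231 and 275 in macrophages. Dex-treated macrophages lay above Dex-treated monocytes (1.24-fold, log2 change 0.30, SE 0.13, limma adjusted p = 0.0441), while the vehicle groups overlapped (0.12, SE 0.12, limma adjusted p = 0.36). The call with Dex was kept in 5 of the 11 fits that left out 1 sample, in which adjusted p ran from 0.0224 to 0.312. With samples centred on their medians it turned to -0.53 (limma adjusted p = 0.00021), and with vehicle to -0.80 (limma adjusted p = 7.02e-07). The Dex response was -0.05 (95% interval -0.30 to 0.20) in monocytes and 0.14 (-0.14 to 0.42) in macrophages. In macrophages it passed after median-centring (0.36, limma adjusted p = 0.00818) and after quantile normalization (0.28, limma adjusted p = 0.0332).

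A ratio of genes within a sample does not depend on the sample's scale, although its own size also depends on how well each probe binds. MAP4K4 over MAP4K1 was 3.23 ± 0.0600 (SD, n = 3) in vehicle-treated monocytes and 2.91 ± 0.407 (SD, n = 3) with Dex. In macrophages it was 125 ± 13.9 (SD, n = 3) with vehicle and 99.7 ± 17.9 (SD, n = 2) with Dex. The ratio was thus 38.8-fold higher in macrophages with vehicle and 34.2-fold higher with Dex, with no overlap between the states (2.52 to 3.33 against 87.0 to 137). The ratios here and below were chosen after their values were seen and were not tested.

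p38 is encoded by several genes, of which MAPK14 (p38 alpha) is the form best known in inflammation and MAPK11 (p38 beta) its close relative. MAPK14 was higher with Dex in both states, and its response was larger in macrophages. It measured 1185, 1155 and 1162 units in vehicle-treated monocytes and 1374, 1356 and 1404 in Dex-treated ones. Macrophages held 1452, 1323 and 1246 units with vehicle and 1846 and 1932 with Dex. The Dex groups lay above the vehicle groups of the same state without overlap, and the vehicle-treated macrophages overlapped the Dex-treated monocytes. The mean rose 1.18-fold in monocytes, from 1167 ± 15.8 to 1378 ± 24.6 (SD, n = 3 each; log2 change 0.24, SE 0.05, limma adjusted p = 0.0028). In macrophages it rose 1.41-fold, from 1341 ± 104 (SD, n = 3) to 1889 ± 60.9 (SD, n = 2; 0.50, SE 0.06, limma adjusted p = 1.22e-05). Both rises passed in all 11 fits that left out 1 sample and in all 9 other settings.

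The difference between the MAPK14 responses was 0.26 in log2 (95% interval 0.08 to 0.43, limma adjusted p = 0.035). It passed with each of the 3 other scalings, from 0.23 to 0.34, but in only 3 of the 11 fits that left out 1 sample (limma adjusted p from 0.00324 to 0.116). Nor did it pass with no filter on low values (limma adjusted p = 0.0549) or without the trend (limma adjusted p = 0.0812). Between the states with vehicle, MAPK14 was 1.15-fold higher in macrophages as deposited (0.20, SE 0.05, limma adjusted p = 0.00421), but -0.05 with housekeeping-centred samples (limma adjusted p = 0.158), -0.72 after median-centring and -0.75 after quantile normalization (limma adjusted p = 7.14e-09 and 1.73e-10).

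MAPK11 stood near the background. Its values were 25.2, 11.2 and 15.8 units in vehicle-treated and 15.9, 10 and 16.9 in Dex-treated monocytes, and 8.01, 27.8 and 5.02 in vehicle-treated and 8.60 and 19.4 in Dex-treated macrophages. All 4 groups overlapped. The highest group mean was 17.4 ± 7.10 (SD, n = 3), beside negative controls of up to 15.6 units, so no fold is given and no comparison between groups was made. By an estimate from the step between low values in each sample, the signal stood for about 4.12 to 26.4 counts net of background per sample, against 931 to 1864 for MAPK14.

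MAPKAPK2, or MK2, the p38 substrate that stabilizes and promotes translation of cytokine mRNAs such as TNF, rose with Dex by nearly the same factor in both states. It read 511, 476 and 504 units in vehicle-treated and 677, 687 and 673 in Dex-treated monocytes, then 983, 1039 and 841 in vehicle-treated and 1220 and 1400 in Dex-treated macrophages. As for HRAS, no group overlapped another. Dex raised the mean 1.37-fold in monocytes, from 497 ± 18.8 to 679 ± 7.02 (SD, n = 3 each; log2 change 0.45, SE 0.08, limma adjusted p = 3.02e-04), and 1.37-fold in macrophages, from 954 ± 102 (SD, n = 3) to 1310 ± 127 (SD, n = 2; 0.46, SE 0.09, limma adjusted p = 5.02e-04). These calls too were kept in all 11 fits that left out 1 sample and in all 9 other settings. The difference of the responses was 0.01 with a 95% interval of -0.24 to 0.26 (limma adjusted p = 0.952). Macrophages held 1.92-fold more than monocytes with vehicle (0.93, SE 0.08, limma adjusted p = 3.92e-08), a difference that fell to 0.02 after median-centring and after quantile normalization (limma adjusted p = 0.812 and 0.747).

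Within samples, MAPKAPK2 over MAPK14 was 0.426 ± 0.0122 in vehicle-treated and 0.493 ± 0.0136 in Dex-treated monocytes (SD, n = 3 each), without overlap. In macrophages it was 0.712 ± 0.0632 (SD, n = 3) and 0.693 ± 0.0449 (SD, n = 2), with overlap. HRAS over MAPK14 stayed at 0.108 ± 0.00342 and 0.107 ± 0.00463 in monocytes with vehicle and Dex (SD, n = 3 each) and lay at 0.174 ± 0.0218 (SD, n = 3) and 0.159 ± 0.00770 (SD, n = 2) in macrophages. Both ratios were higher in every macrophage sample than in every monocyte sample, and multiplying a sample by a factor would leave them as they are.

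DUSP4, or MKP-2, a nuclear phosphatase that inactivates MAP kinases and is itself induced by ERK signalling, was much higher in macrophages and rose further with Dex there. The gene lies at chr8:29333064-29350684 (RefSeq, GRCh38.p14). Its signal was 81.4, 84.8 and 86.2 units in vehicle-treated and 80.8, 102 and 92.1 in Dex-treated monocytes. In macrophages it was 523, 590 and 543 units with vehicle and 669 and 779 with Dex. The monocyte groups overlapped, and the macrophage groups stood apart from them and from each other. The macrophage mean was 6.56-fold higher with vehicle (log2 change 2.70, SE 0.11, limma adjusted p = 1.08e-11) and 7.91-fold higher with Dex (2.97, SE 0.12, limma adjusted p = 1.41e-11). Other scalings brought these down to 1.78 with vehicle (3.44-fold, median-centring) and 2.01 with Dex (4.02-fold, quantile normalization). Dex raised it 1.31-fold in macrophages, from 552 ± 34.8 (SD, n = 3) to 724 ± 77.7 (SD, n = 2; 0.39, SE 0.12, limma adjusted p = 0.0164), a call that ended without Dex-treated macrophage replicate 5 (0.28, limma adjusted p = 0.161). In monocytes the change was 0.11 (95% interval -0.12 to 0.35), and the responses differed by 0.27 (-0.08 to 0.63, limma adjusted p = 0.262). Relative to MAPK14 within samples, DUSP4 went from 0.0721 ± 0.00299 with vehicle and 0.0665 ± 0.00815 with Dex in monocytes (SD, n = 3 each) to 0.414 ± 0.0470 (SD, n = 3) and 0.383 ± 0.0288 (SD, n = 2) in macrophages, 5.74-fold higher with vehicle.

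**Figure D2:**
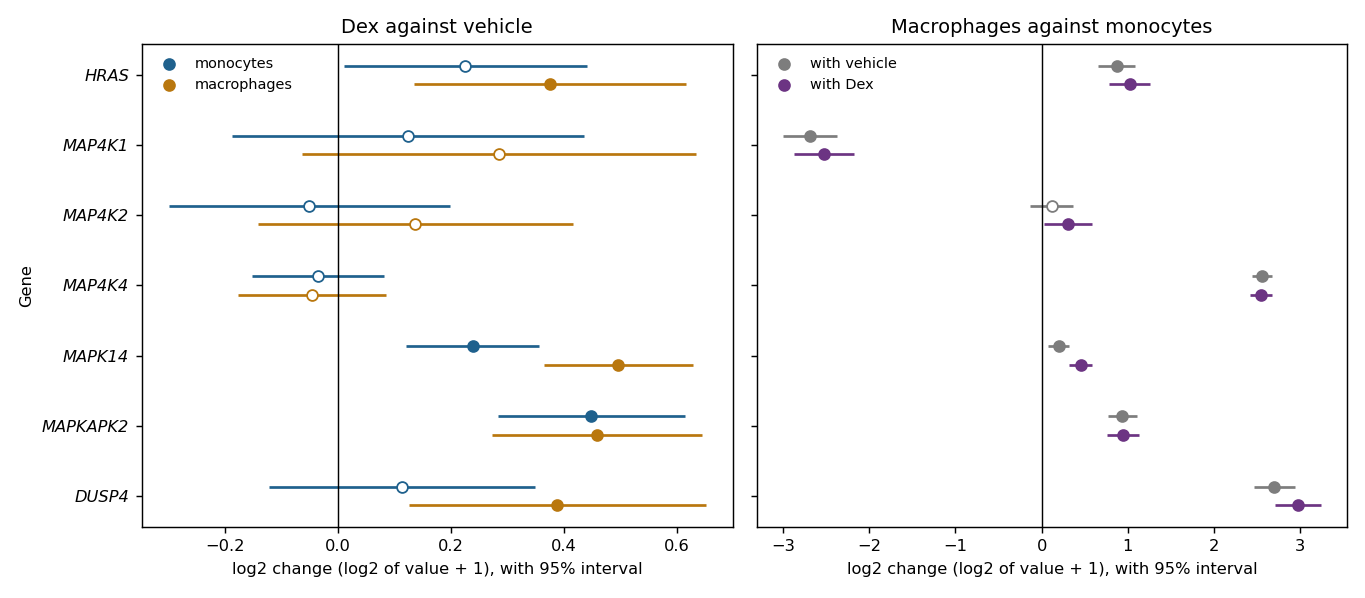
Log2 changes of the 7 tested genes with their 95% intervals from the fit, for Dex against vehicle in monocytes and macrophages (left) and for the macrophage state against the monocyte state under either treatment (right); filled points passed at adjusted p under 0.05. The Dex changes stay within 0.50 in log2, whereas between the states DUSP4 differs by 2.70 and 2.97, MAP4K4 by 2.56 and 2.55 and MAP4K1 by -2.68 and -2.52.

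Counted together, 2 of the 7 tested genes rose with Dex in monocytes (MAPK14 and MAPKAPK2) and none fell, by limma at adjusted p under 0.05; 3 had an unadjusted p under 0.05. Over all 379 tested genes 39.1% were called in that comparison, 16.9% higher and 22.2% lower. In macrophages 4 of 7 rose (MAPK14, MAPKAPK2, DUSP4 and HRAS) and none fell, with 4 at an unadjusted p under 0.05, where 47.5% of all tested genes were called, 22.4% higher and 25.1% lower. The median log2 change was 0.12 in monocytes and 0.38 in macrophages, beside -0.03 in each over all tested genes. The Dex and vehicle groups did not overlap for 3 of 7 genes in monocytes and 4 of 7 in macrophages, where 54.6% and 58.6% of all tested genes did not. Median-centring moved the median of all tested genes from -0.03 to 0.12 in monocytes and to 0.19 in macrophages. With it, 3 of the 7 were higher in monocytes and 7 in macrophages, and the calls over all genes went from 43.2% to 61.5% higher and from 47.2% to 67.3% higher. The Dex-treated macrophage samples had been kept partly because FKBP5 rose in them, and how that choice bears on these values was not tested.

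Between the cell states, 5 of the 7 were higher and 1 lower in macrophages with vehicle, and 6 higher and 1 lower with Dex. Over all tested genes 84.7% were called with vehicle (65.2% higher, 19.5% lower) and 79.7% with Dex (61.7% higher, 17.9% lower), so most genes of the panel were called higher. The state groups did not overlap for 6 of 7 genes with vehicle and 7 of 7 with Dex, beside 85% and 85.8% of all tested genes. The median log2 change over all tested genes was 0.72 with vehicle and 0.75 with Dex, close to the 0.87 and 0.94 of the 7 genes. Median-centring moved the median over all genes to -0.20 and -0.09, and quantile normalization moved it to -0.25 and -0.18. Under either of these, 2 of the 7 were higher (DUSP4 and MAP4K4) and 3 lower (MAP4K1, MAPK14 and MAP4K2) with vehicle and with Dex, while HRAS and MAPKAPK2 did not pass. Calls over all genes with vehicle went from 76.9% higher to 68.3% with the housekeeping list, 45.6% after median-centring and 44.9% after quantile normalization; with Dex they went from 77.5% to 67.3%, 46.3% and 43.4%. DUSP4, MAP4K4 and MAP4K1 kept their direction and their call under all 9 other settings and in all 11 fits that left out 1 sample. For the difference of the responses, 1 of the 7 passed (MAPK14), where 25.9% of all tested genes did, 13.5% towards a more positive and 12.4% towards a more negative response in macrophages; after median-centring 63.5% of those calls were positive, instead of 52.0%.

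**Figure D3:**
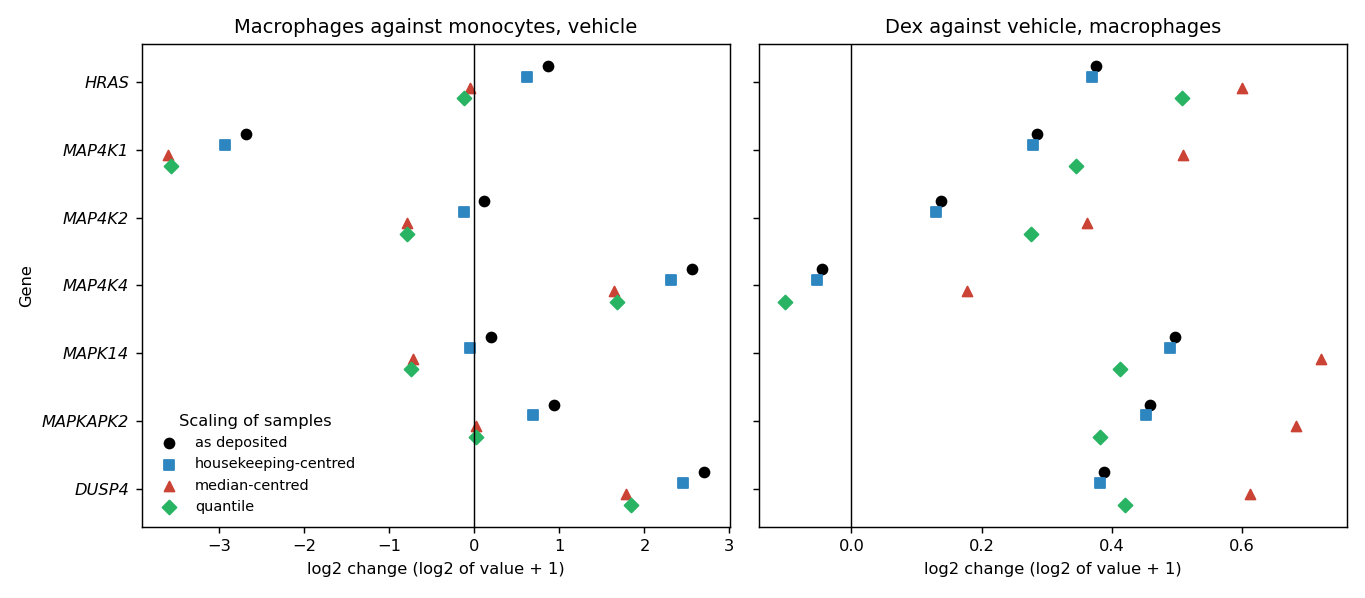
Log2 changes of the 7 tested genes under 4 scalings of the samples, for macrophages against monocytes with vehicle (left) and for Dex against vehicle in macrophages (right); symbols mark the scaling. The state differences of HRAS, MAPK14, MAPKAPK2 and MAP4K2 move to or across 0 with the scaling, those of MAP4K1, MAP4K4 and DUSP4 do not, and on the right MAP4K4 is the gene that changes sign.

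**Figure D4:**
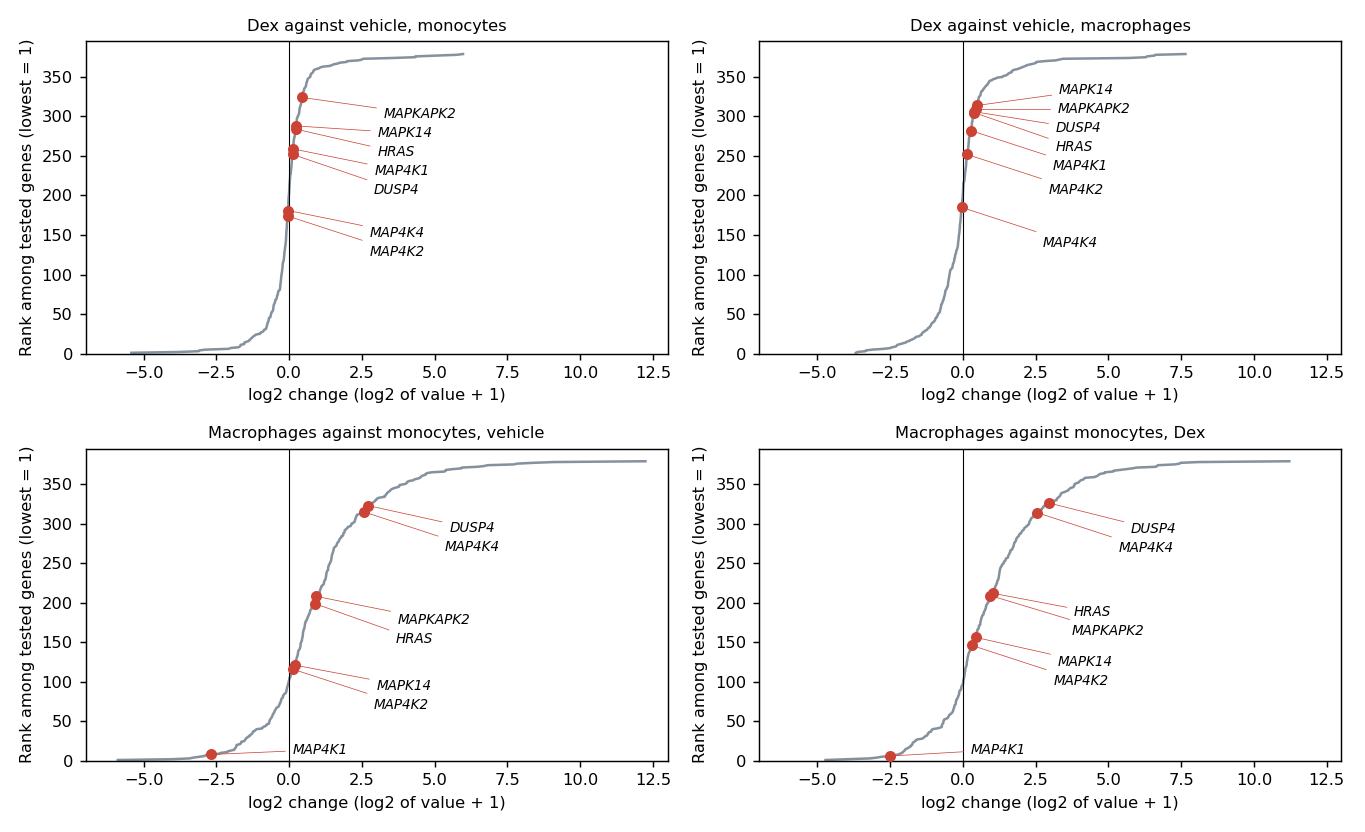
Rank of each of the 379 tested genes by log2 change (grey curve, lowest change at rank 1) in the 4 comparisons, with the 7 tested MAP kinase pathway genes as labelled points. MAP4K1 is the 8th lowest with vehicle and the 6th lowest with Dex, and the Dex changes of the 7 genes lie between the 174th and the 324th lowest.

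Other genes of the pathway were counted from lists chosen by their known role. A list of 20 further cascade kinases matched 0 rows used here. Among 15 tested adaptors and kinases upstream of MAP kinases, 2 rose and 3 fell with Dex in monocytes and 5 rose and 3 fell in macrophages, beside 16.9% higher and 22.2% lower of all tested genes in monocytes and 22.4% and 25.1% in macrophages. The Src-family kinase FYN fell 1.69-fold in monocytes, to 134 ± 18.9 units (SD, n = 3), and 1.73-fold in macrophages, to 332 ± 18.1 (SD, n = 2). LCP2, or SLP-76, an adaptor of immune receptor signalling, rose 1.65-fold and 1.51-fold, and TRAF3, an adaptor that restrains MAP kinase and NF-kB signalling, fell 1.32-fold and 1.68-fold. After median-centring the counts were 4 higher and 3 lower in monocytes and 10 and 3 in macrophages. Over all 379 genes that scaling gave 104 higher and 65 lower in monocytes and 152 and 74 in macrophages. Leaving out 1 sample gave 1 to 3 higher in monocytes and 3 to 8 in macrophages. For the difference of the responses 1 of the 15 was called, beside 25.9% of all tested genes. That gene was TRAF6, the ubiquitin ligase that activates MAP kinase pathways below Toll-like and interleukin 1 receptors (0.57, SE 0.18, limma adjusted p = 0.035). That call was kept in 6 of the 11 fits that left out 1 sample: it ended without vehicle-treated monocyte replicate 1 (0.49, limma adjusted p = 0.0826), Dex-treated monocyte replicate 2 (limma adjusted p = 0.058) or 3 (0.0761), vehicle-treated macrophage replicate 3 (0.0746) or Dex-treated macrophage replicate 5 (0.116), and also with no filter (limma adjusted p = 0.0525). With the replicate block it was 0.39 (limma adjusted p = 0.282). Its signal went from 151 ± 15.5 to 147 ± 8.91 units in monocytes (SD, n = 3 each) and from 230 ± 27.7 (SD, n = 3) to 334 ± 29.7 (SD, n = 2) in macrophages.

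Among 5 tested transcription factors and early targets, 3 rose and 2 fell with Dex in each state, counts that held under all 9 other settings and with any 1 sample left out. Over all tested genes 16.9% rose and 22.2% fell in monocytes, and 22.4% rose and 25.1% fell in macrophages. The fallers among the 5 were EGR1 and EGR2, immediate-early genes of the ERK branch. EGR1 fell 1.85-fold in monocytes, from 299 ± 75.5 to 161 ± 24.4 units (SD, n = 3 each), and 1.86-fold in macrophages, from 311 ± 16.4 (SD, n = 3) to 167 ± 3.74 (SD, n = 2). EGR2 fell 3.62-fold in macrophages, from 459 ± 52.1 (SD, n = 3) to 127 ± 2.82 (SD, n = 2), while both monocyte means lay under 20 units (17.4 and 5.26), near the negative controls. EGR2 passed the filter through its macrophage levels alone, so no fold is given in monocytes and its monocyte fall rests on values near background. The risers were CEBPB, STAT3 and ETS1. CEBPB, a transcription factor of macrophage genes, rose 1.60-fold in monocytes and 3.02-fold in macrophages, to 6536 ± 336 units (SD, n = 2). ETS1, an ERK-responsive transcription factor, rose 1.27-fold and 1.26-fold.

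Of 10 tested mRNAs known to be regulated through p38 and MAPKAPK2, 9 fell in monocytes and 10 in macrophages, and none rose by limma in either state. Over all tested genes 22.2% fell and 16.9% rose in monocytes, and 25.1% fell and 22.4% rose in macrophages. The gene of the 10 that did not pass in monocytes was LIF, below 20 units there. LIF passed the filter through vehicle-treated macrophages alone (25.97 units), the group its macrophage fall is measured from. CCL2 passed through the vehicle groups alone (85.7 units in monocytes and 77.3 in macrophages, against 1.00 and 12.0 with Dex). Its falls are measured from those groups. With a filter of 50 units, which leaves LIF out, 9 of 9 fell in each state, beside 85 (monocytes) and 91 (macrophages) of all 331 genes. That filter still admits CCL2, and also CXCL2, through vehicle groups alone (CXCL2 with Dex: 19.8 and 49.3 units), so it does not free the count from this limit. With no filter 8 of 14 fell in monocytes and 9 of 14 in macrophages, beside 76 and 95 of all 594. At an unadjusted p under 0.05 the count of rises was also 0. The median log2 change of the 10, LIF and CCL2 included, was -1.70 in each state, beside -0.03 over all tested genes. IL8, a neutrophil chemoattractant, fell 13.7-fold in monocytes and 5.57-fold in macrophages, IL1B fell at least 4-fold and 12.3-fold, and CCL2 at least 4.29-fold and at least 3.87-fold. These are cytokine and chemokine genes under many controls besides p38, and the list was chosen with earlier results of these samples known. Falls numbered 8 to 9 and 8 to 10 when 1 sample was left out. Within the same samples MAPK14 and MAPKAPK2 transcripts were higher with Dex, as given above.

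Among 5 phosphatases and feedback inhibitors besides DUSP4, NFKBIA, the inhibitor of NF-kB, rose 2.76-fold in monocytes and 1.62-fold in macrophages. In macrophages the phosphatases PTPN22, which acts in lymphocyte receptor signalling, and PTPN2, which acts on JAK-STAT signalling, fell 2.18-fold and 1.21-fold; neither passed in monocytes. The fall of PTPN2 ended without Dex-treated macrophage replicate 1 (-0.16, limma adjusted p = 0.215), after median-centring (-0.051, limma adjusted p = 0.609) and after quantile normalization (-0.068, limma adjusted p = 0.456), and with the replicate block it was -0.305 (limma adjusted p = 0.0569). As deposited, 1 of the 5 rose in monocytes, and 1 rose and 2 fell in macrophages. The shares over all tested genes were 16.9% higher and 22.2% lower in monocytes and 22.4% and 25.1% in macrophages. After median-centring 3 rose in monocytes, and 2 rose and 1 fell in macrophages. With that scaling 104 of all 379 genes rose and 65 fell in monocytes, and 152 rose and 74 fell in macrophages.

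Between the states with vehicle, 11 of the 15 upstream genes were higher and 3 lower in macrophages, beside 65.2% higher and 19.5% lower of all tested genes, which also stand beside the counts that follow. The 11 and 3 became 5 and 8 after median-centring or quantile normalization. IRAK2, a kinase of Toll-like receptor signalling, was 15.2-fold higher, with a monocyte mean of 21.2 units, near the level of 20, against 321 ± 38.6 (SD, n = 3), and the focal adhesion kinase PTK2 was 6.21-fold higher. Early targets counted 4 higher and 0 lower of 5 (3 and 2 after median-centring or quantile normalization), with EGR2 at least 22.9-fold, CEBPB 4.96-fold and ETS1 4.88-fold higher. EGR2 passed the filter through its macrophage groups alone, so its place in that count is not independent of the filter. EGR1 differed by 0.08 as deposited (limma adjusted p = 0.615). Under those 2 scalings EGR1 and STAT3 were the genes called lower in macrophages. Of the mRNAs regulated through p38, 8 of 10 were higher and 0 lower (6 and 2 after median-centring), IL1B by 60.8-fold and PLAUR, the urokinase receptor, by 10.01-fold. LIF, among these 8, passed the filter through vehicle-treated macrophages alone, the group in which it is higher. A filter of 50 units, which leaves LIF out, gave 7 of 9 higher and 0 lower. Of the 5 phosphatases and inhibitors, 4 were higher and 1, PTPN22, was 5.13-fold lower; after median-centring these were 2 and 3.

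The genes most like each member over the 11 samples were found by Pearson r of log2 signal, a description in which the samples share the 4 groups and each sample its scale. MAPK14 was closest to JAK2 (r = 0.968) and JAK1 (0.962), both of which reached their highest group mean in Dex-treated macrophages, at 1707 and 776 units. MAPKAPK2 was closest to STAT3 (0.989), which like it stepped up in the order of the 4 groups. HRAS had ITGA5 (0.991) and NFIL3 (0.990) beside it. For MAP4K1 the nearest were CSF3R (0.993) and CFD (0.992), the granulocyte colony-stimulating factor receptor and complement factor D, both low in macrophages. MAP4K4 followed LGALS3 (0.999), which went from 1003 units in vehicle-treated monocytes to 4600 in vehicle-treated macrophages, and LY96 (0.999), listed at 1.00 in the monocyte groups. DUSP4 ran with NT5E (0.994) and ETS1 (0.993). MAP4K2 had no close partner, with RELA at 0.872 and NOS2, below 20 units in 3 of the groups, at 0.855.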

How the data were processed

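Total RNA from 11 samples was measured on the nCounter. The table deposited by the authors holds a linear signal, already background-subtracted and scaled, since 100% of the low endogenous values examined in each sample lay within 0.1 of a regular step offset by the fraction seen in control probes. That step ranged over 0.659 to 0.966 units (monocyte samples) and 1.21 to 1.52 (macrophage samples). Quality control was in nSolver, per the labels' design text; version, reference genes and background rule: not given in the sources used here. Whole counts were not recovered, so no count test was run, and net counts are approximate.

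All 594 endogenous probes were read. The 379 with a highest group mean of at least 20 units were tested on log2(signal + 1) with limma 3.58.1 in R 4.3.3 (lmFit, eBayes with trend), 1 fit over all 4 groups, Benjamini-Hochberg adjustment over all tested genes and a threshold of 0.05. Folds are ratios of group means, with a mean under 20 set to 20 and written "at least". Intervals are 95% from the moderated fit. The script was tested on simulated data. The 8 members and the gene lists were chosen with earlier results of these data known. Named besides the members were up to 3 called genes per list and comparison by largest change, also given in the other comparisons, the 2 genes closest to each member (1 of which is not reported here), and FKBP5. Alternatives were 3 scalings, 2 pseudocounts, 2 filters, no trend, a replicate block and leaving out each sample. Same-numbered samples of different groups were checked for shared deviations; the numbers do not mark a shared culture or day in the labels.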

Additional observations from a re-analysis of the deposited data

Results flagged for a closer look

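MAPK14 responded differently to Dex in the 2 cell states by the interaction term: its log2 change was 0.24 in monocytes and 0.50 in macrophages, a difference of 0.26 (SE 0.08, limma adjusted p = 0.035). In all, 1 of 7 tested members passed this test, beside 25.9% of all tested genes. The call was lost in 8 of the 11 fits that left out 1 sample. Dex-treated macrophages hold 2 samples, 1846 and 1932 units, and the 3 vehicle-treated macrophages ranged from 1246 to 1452.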

How the results depend on the processing

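Beside the values as reported, 9 other settings and 11 fits without 1 sample were run. The cause of the changes below was not tested. With median-centred samples, all tested genes called higher with Dex numbered 104 in monocytes and 152 in macrophages, and the members called higher in macrophages 7. Macrophages against monocytes gave 2 members higher and 3 lower with vehicle and with Dex after median-centring and after quantile normalization. Over all genes these were 149 higher and 178 lower (vehicle) and 145 and 168 (Dex) after median-centring, and 147 and 180 (vehicle) and 142 and 185 (Dex) after quantile normalization. Signs turned as follows. For Dex in monocytes, MAP4K2 became 0.095 (median) and 0.13 (quantile) and MAP4K4 0.11 and 0.10, and for Dex in macrophages MAP4K4 became 0.18 (median). For the states with vehicle, median, housekeeping and quantile scaling gave MAPK14 -0.72, -0.049 and -0.75 and MAP4K2 -0.80, -0.13 and -0.80, and HRAS was -0.047 (median) and -0.12 (quantile). With Dex, median and quantile scaling gave MAPK14 -0.38 and -0.49 and MAP4K2 -0.53 and -0.65, and MAPKAPK2 was -0.050 (quantile). The difference of the responses became -0.019 (housekeeping) and -0.068 (quantile) for MAPKAPK2 and 0.068 (median) for MAP4K4.

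With the replicate number as a block (3 residual degrees of freedom), the difference of the responses was called for 28 genes positive and 21 negative instead of 51 and 47, and 43 genes instead of 68 were lower in macrophages with Dex. MAPK14's difference was 0.24 (limma adjusted p = 0.251), MAP4K4's 0.018, and MAP4K2's state difference with Dex 0.25 (limma adjusted p = 0.399). Other member calls were the same with the block. Same-numbered samples had deviations correlating from -0.41 to 0.23, so the numbers were not taken to pair samples. Members called for the difference numbered 0 with the block, 0 with no filter and 0 without the trend.

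Leaving out 1 sample, the members called for the difference ranged from 0 to 1, and all genes called negative from 29 (without Dex-treated macrophage replicate 1) to 52. Values ranged from -0.13 to 0.0090 (without vehicle-treated monocyte replicate 1) for MAP4K2 with Dex in monocytes, and from -0.14 to 0.048 for MAP4K4 with Dex in macrophages. For the difference they ranged from -0.089 to 0.11 for MAPKAPK2 and from -0.11 to 0.083 for MAP4K4. MAPK11 lay too near the background for a test, and Dex-treated macrophages have 2 samples.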

Other observations

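The spread between replicates was set beside the spread that counting alone would give at the estimated net counts. For MAP4K1 in vehicle-treated monocytes the coefficient of variation was 0.263% over 3 samples, beside 5.60% from counting. HRAS and DUSP4 in the same group were at 1.93% and 2.95%, beside 8.01% and 9.83%. In vehicle-treated macrophages MAPKAPK2 was at 10.7% beside 3.67%, and MAPK14 at 7.77% beside 3.10%. These pairs were chosen after their values were seen, and the counts behind them are approximate because the background that was subtracted is unknown.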
